A study of Mus musculus with 9 samples.

Results

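The TNF superfamily ligands and receptors described here are 10 mouse genes, 4 ligands (*Tnf*, *Tnfsf9*, *Tnfsf10*, *Tnfsf14*) and 6 receptors (*Tnfrsf1a*, *Tnfrsf1b*, *Tnfrsf9*, *Tnfrsf12a*, *Fas*, *Cd40*). They were chosen by gene symbol from a table of 17943 genes measured by bulk RNA-seq in skin, and all 10 were among the 16426 genes tested. The study asked what the loss of SPT6, a transcription elongation factor encoded by *Supt6*, does to gene expression and inflammation in the skin. *Supt6*-KO mice (n = 4) carried K14-CreERT and *Supt6* fl/fl and had received tamoxifen. Control mice (n = 5) carried *Supt6* fl/fl and, by the methods of the study, had received corn oil without tamoxifen. The labels call the same groups Supt6 knockdown and WT. Skin was collected on day 10 after the final injection, and injections began in the first telogen of the hair cycle. The *Supt6*-KO mice therefore differ from the controls in the Cre transgene and in tamoxifen as well as in *Supt6*. The K14 promoter drives Cre in basal keratinocytes, so the immune, dermal and vascular cells of the same tissue piece keep their *Supt6*.

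The labels name ear as the tissue and the methods of the study name dorsal skin. Cartilage genes, which mark the ear, were present in every library, with a summed level of 327 to 734 CPM (counts scaled to a fixed library total) in the control mice and 62.5 to 75.1 CPM in the *Supt6*-KO mice. Epidermal genes such as *Krt5*, *Krt14* and *Krt10* were abundant in all 9 libraries. Libraries held 29627341 to 30491197 estimated counts in control mice and 30597189 to 30967107 in *Supt6*-KO mice. *Supt6* itself had 74.5, 56.6, 63.6, 91.1 and 96.7 CPM in the control mice and 28.6, 24.1, 21.9 and 28.4 CPM in the *Supt6*-KO mice. All *Supt6*-KO values lay below all control values, with a log2 fold change of -1.57 (SE 0.18, adjusted p = 1.3e-05). With a correction for gene length that value was -0.74.

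Proteins of the TNF superfamily are cytokines, mostly made as membrane-bound trimers, that bind a family of cell surface receptors with cysteine-rich extracellular repeats. Some receptors, such as TNFR1 and FAS, carry an intracellular death domain and can start apoptosis or necroptosis, whereas others recruit TRAF adaptors and activate NF-κB and MAP kinases. In skin, TNF made by keratinocytes, macrophages, mast cells and T cells is a central inflammatory cytokine, and antibodies against it are used to treat psoriasis.

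The members lie at 10 positions of the mouse genome (GRCm38.p6, RefSeq genes). On chromosome 17 are *Tnf* (chr17:35199367-35202007), which is 1158 bases from *Lta*, *Tnfsf9* (chr17:57105287-57107758), *Tnfsf14* (chr17:57189474-57194181) and *Tnfrsf12a* (chr17:23675445-23677449). *Tnfrsf1b* (chr4:145212368-145246870) and *Tnfrsf9* (chr4:150920155-150946104) share chromosome 4. The others are *Tnfsf10* (chr3:27317077-27339665), *Tnfrsf1a* (chr6:125349723-125362483), *Fas* (chr19:34290647-34327775) and *Cd40* (chr2:165055614-165071654). *Tnfrsf12a* overlaps *Hcfc1r1* by 80 bases, and *Tnfsf9* overlaps *Gm11110* by 656 bases. How the counting treated strand is not stated in the sources used here, so reads from the shared bases cannot be assigned with certainty.

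The RefSeq promoter table (GRCm38.p6) held 9 windows for 8 of the members, and *Tnfsf9* and *Cd40* had no entry. The GC box, TATA box and AP-1 motifs and the consensus of NF-κB, the factor that TNF receptors activate, were searched on both strands in the 250 bases before each start. The windows of *Tnf*, the ligand with the largest fold change, of *Tnfrsf12a*, the receptor with the largest fold change, and of *Tnfrsf9*, which was not called, are shown 5′ to 3′ along the strand of the gene. Capitals mark GC boxes (GGGCGG or its complement), a TATA box (TATAAA), AP-1 sites (TGANTCA) and matches to the NF-κB consensus. The windows are chr17:35202008-35202257 on the minus strand for *Tnf*, chr17:23677450-23677699 on the minus strand for *Tnfrsf12a*, and chr4:150927749-150927998 on the plus strand for an alternative start of *Tnfrsf9*.
Tnf: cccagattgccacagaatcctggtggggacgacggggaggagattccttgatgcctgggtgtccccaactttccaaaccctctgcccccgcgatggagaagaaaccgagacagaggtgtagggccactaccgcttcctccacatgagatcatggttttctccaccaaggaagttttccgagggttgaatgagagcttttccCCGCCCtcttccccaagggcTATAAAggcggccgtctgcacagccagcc
Tnfrsf12a: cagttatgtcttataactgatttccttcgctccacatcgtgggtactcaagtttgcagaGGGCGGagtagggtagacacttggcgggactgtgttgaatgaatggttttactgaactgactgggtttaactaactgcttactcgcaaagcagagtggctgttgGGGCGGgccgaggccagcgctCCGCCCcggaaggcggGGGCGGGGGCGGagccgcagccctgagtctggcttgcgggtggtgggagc
Tnfrsf9: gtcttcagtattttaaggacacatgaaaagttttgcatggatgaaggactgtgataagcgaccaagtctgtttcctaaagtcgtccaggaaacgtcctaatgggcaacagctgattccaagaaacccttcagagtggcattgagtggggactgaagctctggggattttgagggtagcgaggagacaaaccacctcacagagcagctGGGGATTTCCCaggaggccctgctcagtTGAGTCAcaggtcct

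The *Tnf* window holds a TATA box 29 to 24 bases before the start and a GC box 49 to 44 bases before it, and no match to the NF-κB consensus in these 250 bases. The *Tnfrsf12a* window holds 5 GC boxes and none of the other motifs. The *Tnfrsf9* window holds 2 overlapping matches to the NF-κB consensus, 43 to 33 bases before the start, and an AP-1 site 15 to 9 bases before it. Among the 8 members, an NF-κB match was found in *Tnfrsf9* only, and 3.9% of all 32851 promoter windows held one. AP-1 sites were found for *Fas*, *Tnfrsf9* and *Tnfsf14* (6.75% of all windows), GC boxes for *Fas*, *Tnf*, *Tnfrsf12a*, *Tnfrsf1b* and *Tnfrsf9* (32.7%), and the TATA box for *Tnf* alone (12.4%). A match describes the letters and not a bound site, and its absence says only that these letters are not in the window.

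Compared with control skin, *Supt6*-KO skin had more RNA of all 4 ligands and of 3 of the 6 receptors. *Tnf* was 4.68-fold, *Tnfsf14* 4.28-fold, *Tnfsf9* 3.43-fold and *Tnfsf10* 1.69-fold the control level. The receptors *Tnfrsf12a*, *Cd40* and *Fas* rose 2.81-fold, 2.21-fold and 1.68-fold, whereas *Tnfrsf1a*, *Tnfrsf1b* and *Tnfrsf9* were not called. Of the 10 members, 7 were higher and 0 lower at an adjusted p under 0.05 (edgeR's quasi-likelihood test, Benjamini-Hochberg adjustment over all genes tested). By the same rule 34.1% of all genes tested were higher and 36.8% lower. With a change of at least 2-fold, 5 members were higher and 0 lower, against 20.9% and 24.9% of all genes. The median log2 fold change was 0.95 over the members, 1.94 over the ligands and 0.60 over the receptors, against -0.07 over all genes tested. Change was widespread in these libraries, and nothing is drawn here from these shares about the family as a whole.

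The scale of these changes depended on the library scaling, since TMM factors were 1.1979 to 1.3149 in control and 0.6738 to 0.9098 in *Supt6*-KO libraries. When library totals were used in place of TMM, the median of all genes moved from -0.07 to -0.76, and the share of calls that were higher fell to 23.6% from 48.1%. Then *Tnf* (1.51), *Tnfsf14* (1.43), *Tnfsf9* (1.10) and *Tnfrsf12a* (0.82) were still higher, *Tnfsf10* (0.02), *Fas* (0.01) and *Cd40* (0.41) were not called, and *Tnfrsf1a* was lower (-0.65, adjusted p = 0.0048). Each of these values lies above the all-gene median of that scaling.

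Among the ligands, *Tnf* encodes the founding cytokine of the family. It had 1.90, 2.52, 1.66, 1.57 and 0.840 CPM in the control mice and 5.35, 6.67, 14.0 and 5.75 CPM in the *Supt6*-KO mice. The groups did not overlap, and *Supt6*-KO mouse 3 stood above the other *Supt6*-KO mice. The log2 fold change was 2.22 (SE 0.35, 95% interval 1.45 to 3.00, adjusted p = 0.00016), and it was 1.80 without that mouse.

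*Tnfsf9* encodes 4-1BBL, a costimulatory ligand for T cells. Its level was 0.455, 0.575, 0.747, 0.352 and 0.509 CPM in the control mice and 1.63, 1.78, 1.69 and 2.16 CPM in the *Supt6*-KO mice. The *Supt6*-KO values lay close together and clear of the controls, and the log2 fold change was 1.78 (SE 0.25, adjusted p = 6.8e-05). These values rest on 13 to 27 counts per control library and 37 to 60 per *Supt6*-KO library.

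*Tnfsf14*, which encodes LIGHT, a ligand of HVEM and of the lymphotoxin beta receptor, was the least abundant member. Control libraries held 5, 10, 3, 13 and 8 counts and *Supt6*-KO libraries 10, 14, 27 and 36 counts, or 0.0830 to 0.352 CPM against 0.418 to 1.29 CPM. The groups did not overlap in CPM, although mouse 1 of the *Supt6*-KO group came near the highest control. The log2 fold change was 2.10 (SE 0.45, adjusted p = 0.0015).

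*Tnfsf10* encodes TRAIL, which binds death receptors. It had 1.6, 2.46, 2.63, 1.92 and 2.24 CPM in the control mice and 3.51, 4.41, 4.71 and 2.12 CPM in the *Supt6*-KO mice. Mice 1 to 3 of the *Supt6*-KO group were above all controls and mouse 4 was within their range. The log2 fold change was 0.76 (SE 0.25, adjusted p = 0.018). The call was lost without *Supt6*-KO mouse 2 (0.65, adjusted p = 0.058) or mouse 3 (0.62, adjusted p = 0.066).

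Of the receptors, *Tnfrsf12a*, which encodes FN14, the receptor of TWEAK, showed the smallest adjusted p of the members. Control mice had 21.7, 29.3, 20.1, 23.1 and 17.1 CPM and *Supt6*-KO mice 67.9, 58.4, 50.7 and 72.9 CPM. Every *Supt6*-KO value was far above every control value, and the log2 fold change was 1.49 (SE 0.16, adjusted p = 1.1e-05). *Hcfc1r1*, which shares 80 bases with it, changed by 0.74 (adjusted p = 0.00073).

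*Cd40*, a costimulatory receptor of antigen-presenting cells that keratinocytes can also carry, had 1.02, 1.18, 1.36, 1.14 and 1.27 CPM in the control mice. In the *Supt6*-KO mice it had 3.13, 2.69, 3.52 and 1.26 CPM. The first 3 of these mice were about 2 to 3 times the controls, and mouse 4 was at their level. It rose by 1.15 on the log2 scale (SE 0.28, adjusted p = 0.0031), and 1.38 without mouse 4.

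*Fas*, the death receptor bound by FAS ligand, had 8.75, 10.7, 9.36, 7.71 and 6.98 CPM in the control mice and 13.4, 16.4, 20.3 and 8.44 CPM in the *Supt6*-KO mice. The pattern over mice was like that of *Tnfsf10* and *Cd40*, with mouse 4 again within the control range. Its fold change on the log2 scale was 0.75 (SE 0.23, adjusted p = 0.012), and without mouse 3 it was 0.55 and not called (adjusted p = 0.053).

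*Tnfrsf1a* encodes TNFR1, the receptor through which TNF acts on most cell types. It had 176.5, 179.5, 163.4, 178.3 and 147.1 CPM in the control mice and 199.8, 151.3, 150.0 and 187.3 CPM in the *Supt6*-KO mice. The ranges overlapped widely. The log2 fold change was 0.03 (95% interval -0.26 to 0.31, adjusted p = 0.86), and over the other settings it lay between -0.65 and 0.09.

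*Tnfrsf1b*, which encodes TNFR2, carried mostly by immune and endothelial cells, had 5.38, 5.61, 3.29, 4.98 and 6.06 CPM in the control mice. In the *Supt6*-KO mice it had 6.48, 6.48, 8.05 and 6.72 CPM. All *Supt6*-KO values were above all control values, yet the lowest was near control mouse 5. The log2 fold change was 0.45 (95% interval 0.03 to 0.87) with an adjusted p of 0.051, just above the threshold. It was called without control mouse 5 (0.53, adjusted p = 0.033) and by DESeq2 (0.52, adjusted p = 0.014).

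*Tnfrsf9* encodes 4-1BB, the receptor of the *Tnfsf9* product on activated lymphocytes. It had 2.67, 2.96, 2.21, 2.62 and 1.68 CPM in the control mice and 2.80, 3.02, 3.20 and 3.38 CPM in the *Supt6*-KO mice. The ranges overlapped, and the log2 fold change was 0.35 (95% interval -0.08 to 0.79, adjusted p = 0.13).

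A second test gave each member by itself a two-sided exact permutation p on log2 CPM, in which 5 against 4 mice cannot go below 0.0159. That smallest value was reached by the 5 members whose groups did not overlap, *Tnf*, *Tnfsf9*, *Tnfsf14*, *Tnfrsf1b* and *Tnfrsf12a*. Of all genes tested, 28.9% had all *Supt6*-KO values above all control values and 31.8% had them all below, as no member did. The exact permutation p was 0.0317 for *Tnfrsf9*, 0.0476 for *Cd40*, 0.0635 for both *Fas* and *Tnfsf10*, and 0.873 for *Tnfrsf1a*, unadjusted over these 10 tests.

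Levels of different genes were compared as CPM per kilobase of transcript. In control skin *Tnfrsf1a* led with 78.4 ± 6.40 CPM per kilobase (SD, n = 5), followed by *Tnfrsf12a* with 22.6 ± 4.59 and *Fas* with 5.87 ± 0.966. *Tnfrsf1b* (1.33), *Tnfrsf9* (1.15), *Tnf* (1.04), *Tnfsf10* (0.435), *Tnfsf9* (0.409) and *Cd40* (0.399) followed, each overlapping its neighbour in the order, and *Tnfsf14* was separate below them at 0.113. *Tnfrsf1a* and *Tnfrsf12a* were thus more abundant per length than any ligand among the members. In *Supt6*-KO skin *Tnfrsf1a* (79.8 ± 11.7, SD, n = 4) and *Tnfrsf12a* (63.5 ± 10.1) overlapped. *Tnf* (4.85) followed *Fas* in the order, overlapping *Fas* (9.86) above it and separate from *Tnfrsf1b* (1.82) below it, and *Tnfsf14* (0.490) was still the lowest mean, although it overlapped *Tnfsf10* (0.739).

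Shorter transcripts tended to be higher and longer ones lower in *Supt6*-KO skin. Among the 500 genes nearest in transcript length, the median log2 fold change was 0.93 for *Tnfrsf12a*, 0.89 for *Tnfsf9*, 0.53 for *Fas*, 0.49 for *Tnf*, 0.26 for *Tnfrsf9*, 0.25 for *Tnfsf14*, 0.09 for *Tnfrsf1a*, -0.07 for *Cd40*, -0.30 for *Tnfrsf1b* and -0.61 for *Tnfsf10*. *Tnf* and *Tnfsf14* exceeded the genes of their length by a wide margin, and *Tnfsf10* rose although genes of its length were mostly lower. With a correction for this trend, the log2 fold change of *Fas* was 0.23 and not called (adjusted p = 0.30), and *Tnfrsf12a* (0.63, adjusted p = 0.01) and *Tnfsf9* (1.15, adjusted p = 0.0014) were smaller. Under the same correction *Tnfsf10* (1.36, adjusted p = 0.001) was larger, and *Tnfrsf1b* (0.82, adjusted p = 0.0018) was called higher. The count of 7 higher members was the same with the correction, but 1 gene left it and another entered.

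Ratios within a library do not depend on library scaling, and 3 were tested by exact permutation with Benjamini-Hochberg adjustment over the 3. *Tnfsf12* encodes TWEAK, the ligand of FN14. The ratio of *Tnfrsf12a* to *Tnfsf12* counts was 3.62, 4.58, 5.61, 4.95 and 2.47 in the control mice and 24.8, 23.2, 18.6 and 22.4 in the *Supt6*-KO mice. The ranges were far apart, with a 5.42-fold difference (2.44 on the log2 scale, exact permutation p = 0.0159, adjusted 0.0476).

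*Tnfsf12* shares its locus with *Tnfsf13* and the read-through gene *Tnfsfm13* (-0.52, adjusted p = 0.2), so its counts may be split among them and the ratio is uncertain to that extent. The ratio of *Tnfrsf1b* to *Tnfrsf1a* differed by 0.46 on the log2 scale (exact permutation p = 0.0794, adjusted 0.0794). The ratio of *Tnfsf14* to *Tnfsf10* differed by 1.35 (exact permutation p = 0.0635, adjusted 0.0794). Neither passed the threshold.

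**Figure D1:**
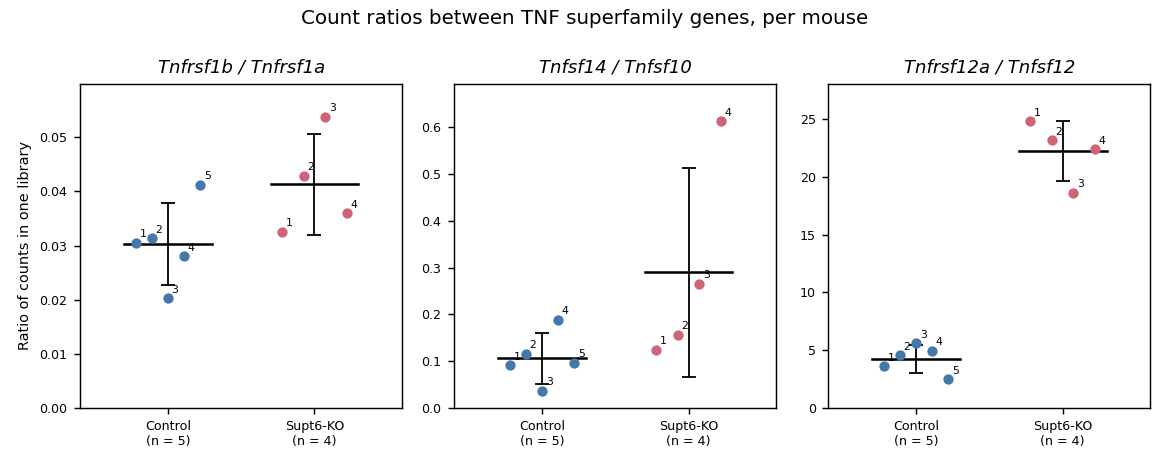
Ratio of the counts of 2 genes within each library (vertical axis, no unit, starting at 0) for 5 control (blue) and 4 Supt6-KO mice (red), with mean and SD. The Tnfrsf12a to Tnfsf12 ratio is 2.47 to 5.61 in control and 18.6 to 24.8 in Supt6-KO mice, whereas the groups overlap for the other ratios.

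Of 33 other ligands and receptors tested, 9 were higher, 11 lower and 13 not called, with a median log2 fold change of 0.07. Over all genes tested 34.1% were higher and 36.8% lower, so these counts are no result about the family. *Tnfsf4*, *Cd40lg* and *Cd70* had at most 2 counts in any mouse and were not tested. *Cd40lg*, the ligand of CD40, had 1, 1, 2, 1 and 2 counts in the control libraries and 0 in the *Supt6*-KO libraries.

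Other ligands called higher were *Tnfsf11* (RANKL, 2.28, adjusted p = 0.00084), *Tnfsf13* (APRIL, 1.93, adjusted p = 0.00036), *Ltb* (lymphotoxin beta, 0.87, adjusted p = 0.023) and *Fasl*. *Ltb* lost its call without control mouse 1 (0.77) or *Supt6*-KO mouse 1 (0.69), with library totals (0.19), with the replicate block (0.74, adjusted p = 0.08) and with the length correction (0.15, adjusted p = 0.63). *Tnfsf11* was at 0.178 to 0.649 CPM in control and 1.13 to 3.66 CPM in *Supt6*-KO mice, without overlap. *Fasl*, the ligand of FAS, had 0, 1, 1, 0 and 0 counts in the control libraries and 7, 4, 1 and 3 in the *Supt6*-KO libraries. *Fasl* passed the filter on counts only through its *Supt6*-KO libraries. Nothing is drawn from its call for that reason, and no fold is given for it at these counts.

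Ligands that fell were *Tnfsf8* (CD30 ligand, -1.61), *Eda* (ectodysplasin, which patterns skin appendages, -1.10) and *Tnfsf12* (-0.98), with adjusted p values of 0.0053, 0.00042 and 0.0018. *Tnfsf12* was at 3.57 to 6.90 CPM in control and 2.49 to 3.23 CPM in *Supt6*-KO mice, so the ligand fell where its receptor *Tnfrsf12a* rose. *Lta*, the neighbour of *Tnf*, had 3 to 8 counts in control and 1 to 2 in *Supt6*-KO libraries and was not called (-0.98, adjusted p = 0.1), although it was called lower with library totals (-1.65) and with the length correction (-1.53).

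Of the 22 other receptors, 5 were higher and 8 lower, or 22.7% and 36.4%, against 34.1% and 36.8% of all genes tested. *Eda2r* (an ectodysplasin receptor, 1.48, adjusted p = 4e-05) rose from 3.76 to 6.12 CPM in control to 9.86 to 16.4 CPM in *Supt6*-KO mice. *Ltbr*, a receptor of LIGHT, was at 40.2 to 54.2 CPM in control and 56.2 to 76.3 CPM in *Supt6*-KO mice (0.49, adjusted p = 0.004), but -0.22 and not called with library totals. The other 3 were *Relt* (0.97, adjusted p = 0.00063), *Tnfrsf17* (0.94, adjusted p = 0.044) and *Tnfrsf26* (0.85, adjusted p = 0.029), of which the last pair had overlapping groups. The call of *Tnfrsf17*, at 4 to 9 counts per library, was kept only without control mouse 5 (1.09) or *Supt6*-KO mouse 4 (1.16) when single mice were left out, and was 0.81 to 1.00 and lost in the other 7 cases. Of 6 other settings that could test it, *Tnfrsf17* kept its call in 1, with no filter on counts, and with the length correction it was -0.14. *Tnfrsf26* lost its call without control mouse 1, 3 or 4 or *Supt6*-KO mouse 3 or 4 (0.70 to 0.81), with upper-quartile factors (0.76, adjusted p = 0.051) and with library totals (0.15, adjusted p = 0.7). *Relt* was not called with library totals (0.28, adjusted p = 0.25). *Ltb*, *Relt*, *Tnfrsf17* and *Tnfrsf26* are named to complete these counts, after their values were seen.

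Among the receptors that fell, *Tnfrsf13c* (BAFF receptor, 25 to 39 counts in control and 0, 5, 1 and 1 in *Supt6*-KO libraries), *Ngfr* (p75 neurotrophin receptor, -3.14), *Tnfrsf11a* (RANK, -2.85), *Tnfrsf19* (TROY, -1.56), *Tnfrsf21* (DR6, -1.41) and *Tnfrsf11b* (osteoprotegerin, the decoy for RANKL, -1.19) changed at least 2-fold. *Tnfrsf13c* changed by -3.48 on the log2 scale, and by -4.85 without *Supt6*-KO mouse 2, at these counts. The remaining lower calls were *Edar* (-0.99, adjusted p = 0.015, overlapping groups) and *Tnfrsf13b* (-0.88, adjusted p = 0.0017), each less than 2-fold. Both are named to complete the count, after their values were seen, and were not followed through the other settings. *Tnfrsf19*, the most abundant of these other receptors per length in control skin, had 119.2 to 147.2 CPM in control and 32.1 to 69.7 CPM in *Supt6*-KO mice. RANKL RNA was higher while RNA of its receptor and of its decoy was lower. *Tnfrsf14* (HVEM, the other receptor of LIGHT) had 1 to 4 counts in each library and was not called. *Tnfrsf10b*, the TRAIL death receptor, was not called (0.24, adjusted p = 0.47), with 12.7 CPM in *Supt6*-KO mouse 4 against 4.13 to 6.49 CPM in the other 8 mice.

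**Figure D2:**
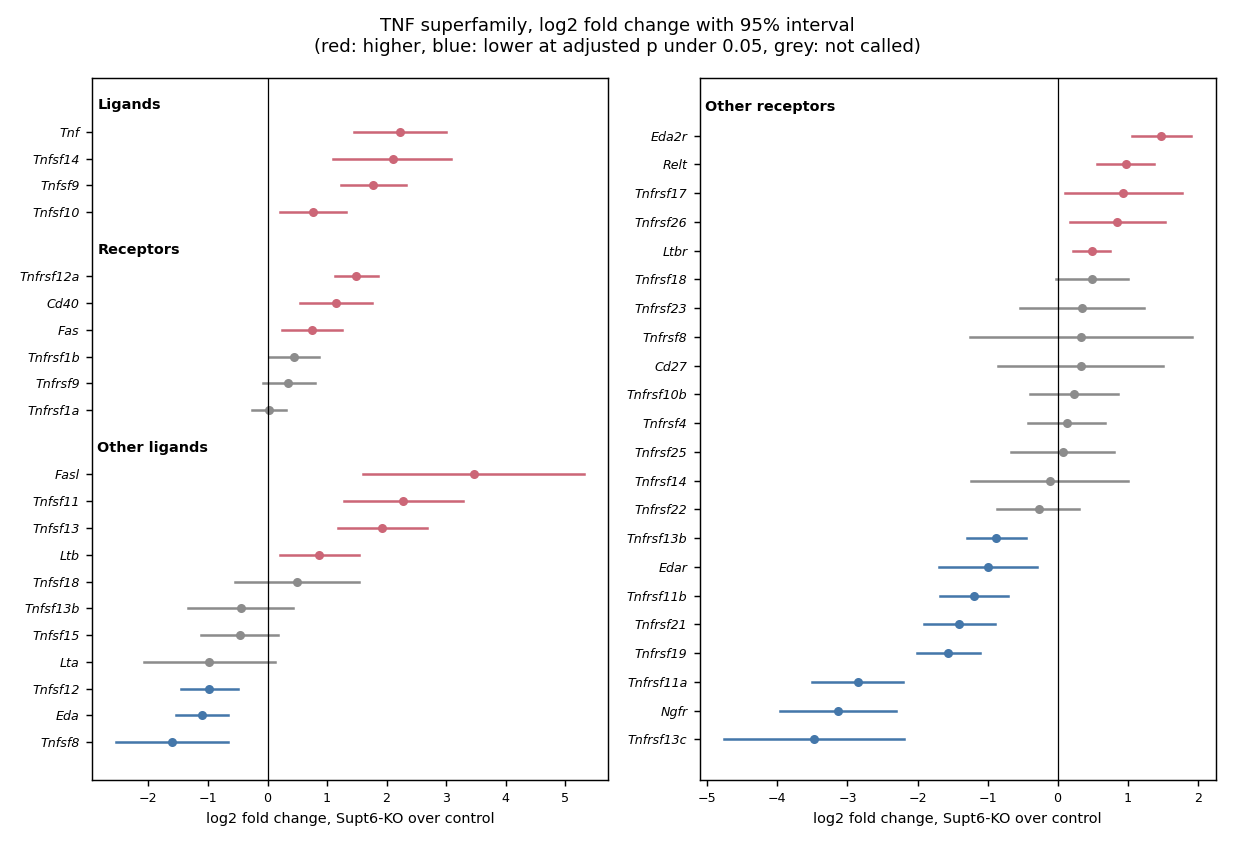
Log2 fold change of Supt6-KO over control (horizontal axis) with its 95% interval for the members, the other ligands and the other receptors, in red where higher, blue where lower and grey where not called. The 4 member ligands all lie to the right of 0, and the other receptors range from -3.48 (Tnfrsf13c) to 1.48 (Eda2r).

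Inside the cell, receptor adaptors and signal mediators were mixed, with 12 of 27 higher, 7 lower and 8 not called, and a median log2 fold change of 0.12. The shares over all genes tested were 34.1% higher and 36.8% lower, and with library totals 2 of the 27 were higher and 15 lower. *Mlkl*, the executor of necroptosis, rose from 1.43 to 2.70 CPM in control to 4.51 to 12.1 CPM in *Supt6*-KO mice (2.14, adjusted p = 7.4e-05). *Tradd*, the TNFR1 adaptor, rose by 1.3 (adjusted p = 7.6e-06). *Ripk3*, the kinase that activates MLKL, was called (1.13, adjusted p = 0.012), with 16.0 CPM in *Supt6*-KO mouse 4 and 4.03 to 6.59 CPM in the other *Supt6*-KO mice, and was 0.53 (adjusted p = 0.028) without mouse 4. With library totals it was not called (0.52, adjusted p = 0.28).

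*Traf3*, an adaptor that restrains non-canonical NF-κB signalling, fell by 1.73 (adjusted p = 9.9e-05), and over the other settings it lay between -2.38 and -0.87. *Rnf31* (HOIP, the catalytic subunit of the linear ubiquitin ligase) fell by 1.16 (adjusted p = 7.7e-05). *Adam17*, the protease that sheds TNF from the cell surface, was not called (-0.09, adjusted p = 0.46). It was lower with library totals (-0.77, adjusted p = 0.00099) and higher with the length correction (0.40, adjusted p = 0.0035), and it is named after its value was seen.

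All 5 NF-κB subunit genes fell, with a median log2 fold change of -0.88, against 36.8% of all genes called lower. *Rela* (-1.36), *Nfkb2* (-1.35), *Relb* (-0.88), *Rel* (-0.78) and *Nfkb1* (-0.62) had adjusted p values from 0.00013 to 0.0034. *Rela* was at 42.4 to 64.7 CPM in control and 13.5 to 29.4 CPM in *Supt6*-KO mice, without overlap. With the length correction *Nfkb1* (-0.20, adjusted p = 0.18) and *Rel* (0.10, adjusted p = 0.51) were no longer called. These are RNA levels and hold no measure of NF-κB in the nucleus.

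Of the 7 feedback inhibitors, which NF-κB induces or which limit it, *Tank* (0.93, adjusted p = 8.2e-05) and *Nfkbie* (0.45, adjusted p = 0.043) were higher and 3 were lower (28.6% and 42.9%, against 34.1% and 36.8% of all genes tested), with a median of -0.12. With library totals none was higher and 5 were lower, with *Tank* at 0.22 (adjusted p = 0.13) and *Nfkbie* at -0.25 (adjusted p = 0.24). *Tnfaip3* (A20) fell by 1.04 (adjusted p = 0.00032), *Tnip1* by 0.63 (adjusted p = 0.00078) and *Nfkbia* (IκBα) by 0.57 (adjusted p = 0.0095). The call of *Nfkbie* was kept only without control mouse 2 (0.56) or *Supt6*-KO mouse 4 (0.52) when single mice were left out, with *Nfkbie* at 0.37 to 0.47 in the other 7 cases. *Nfkbie* also lost its call with upper-quartile factors, with no filter on counts and with the replicate block (0.45, adjusted p = 0.088). *Tnfaip3* was at 14.7 to 27.7 CPM in control and 9.70 to 12.7 CPM in *Supt6*-KO mice. *Nfkbib* (0.25) and *Cyld* (-0.12) were not called. Over the other settings *Cyld* lay between -0.84 and 0.80, and 0 to 3 of the inhibitors were higher and 3 to 5 lower. Apart from *Tnfaip3*, the inhibitors and *Rel*, *Relb* and *Nfkb1* changed less than 2-fold and are named outside the rule for named genes, as all members of these short lists.

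The genes listed as TNF-responsive targets went the other way from the NF-κB subunits. Of 17 such targets, 15 rose and 0 fell, 12 of them at least 2-fold, with a median log2 fold change of 1.94. Of all genes tested, 34.1% were higher and 20.9% higher at least 2-fold. Many stimuli besides TNF induce the listed targets. The feedback inhibitors, which NF-κB induces or which limit it, were kept in their own list. Of those, *Tnfaip3*, *Tnip1* and *Nfkbia* were lower and *Tank* and *Nfkbie* higher, so the count of 0 depends on how the lists were drawn. *Cxcl2*, a neutrophil chemokine, had 0.0255 to 0.219 CPM in control mice (1 to 8 counts) and 34.9, 70.0, 91.1 and 53.5 CPM in *Supt6*-KO mice (8.82, adjusted p = 8.4e-08).

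*Il6* rose by 4.68 (adjusted p = 2.4e-05), *Ptgs2*, the inducible cyclooxygenase, by 3.79 (adjusted p = 2.2e-05), *Cxcl1* by 3.72 (adjusted p = 1e-05) and *Cxcl10* by 3.50 (adjusted p = 0.00038). *Ptgs2* was highest in *Supt6*-KO mouse 4 (48.9 CPM) and *Cxcl10* in mouse 3 (28.5 CPM). On the log2 scale the change was 3.15 for *Ptgs2* without mouse 4, 2.83 for *Cxcl10* without mouse 3 and 5.62 for *Il6* without control mouse 1. The endothelial selectin *Sele* (0.09, adjusted p = 0.75) and the mitochondrial dismutase *Sod2* (0.19, adjusted p = 0.22) were not called. They are named to complete the count, after their values were seen. With the length correction 14 of the 17 were called higher, since *Ccl5* (1.00, adjusted p = 0.1) and *Ccl20* (0.81, adjusted p = 0.099) lost their call and *Sod2* (0.91, adjusted p = 0.00055) gained one. With library totals 10 were higher and *Sod2* was lower (-0.50, adjusted p = 0.012).

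**Figure D3:**
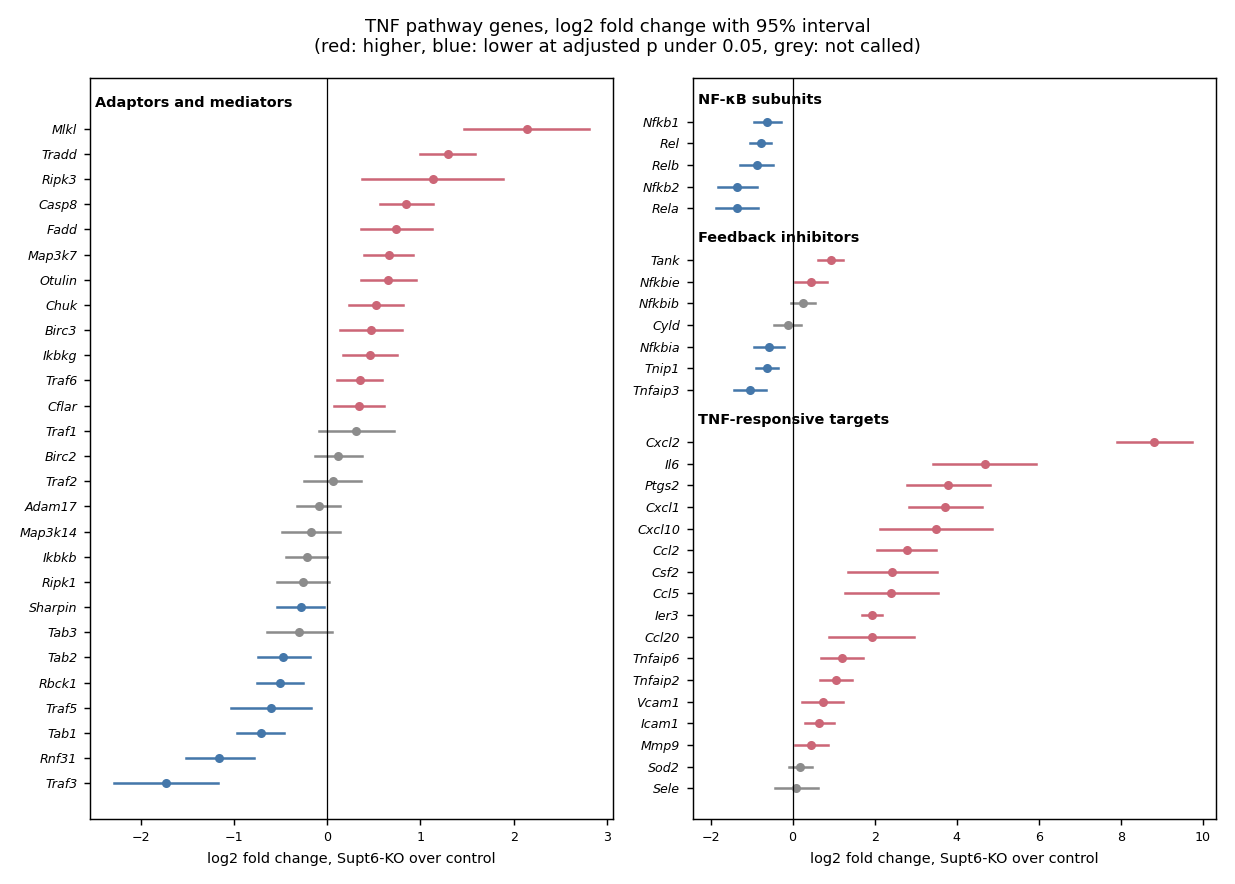
Log2 fold change of Supt6-KO over control (horizontal axis) with its 95% interval for adaptors and mediators, NF-κB subunits, feedback inhibitors and TNF-responsive targets, in red where higher, blue where lower and grey where not called. All 5 NF-κB subunits lie left of 0, and all 17 targets lie right of 0, with 2 of them not called.

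Whole skin mixes many cell types, and in bulk RNA fewer cells of a type and less RNA per cell cannot be told apart. Of 95 cell type markers tested, 31 were higher (32.6%) and 50 lower (52.6%). The counts for each marker list stand against 34.1% higher and 36.8% lower over all genes tested. Macrophage and monocyte markers rose in 10 of 11 cases, with *Lyz2* the most abundant and *Csf1r* the exception that fell (-1.83). Their summed level was 245.9, 230.7, 171.2, 226.5 and 354.3 CPM in the control mice and 924.2, 947.7, 1296 and 765.2 CPM in the *Supt6*-KO mice.

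Neutrophil markers summed to 9.65, 7.50, 7.23, 8.28 and 4.66 CPM in the control mice and 39.7, 37.1, 88.2 and 28.7 CPM in the *Supt6*-KO mice. Of 9 tested, 7 were called higher. *Ltf* had 0 counts in every control library and 3, 3, 9 and 16 in the *Supt6*-KO libraries. *Ltf*, *Ly6g* and *Ngp* passed the filter on counts only through their *Supt6*-KO libraries, so nothing is drawn from their calls. On the scale of CPM per length, *Cxcr2* was the most abundant in each control mouse and *Retnlg* in each *Supt6*-KO mouse. *Mpo* fell (4, 10, 10, 26 and 16 counts in the control libraries and 1, 0, 0 and 0 in the *Supt6*-KO libraries). *Ly6g* had at most 1 count in control libraries and 4, 0, 15 and 1 in *Supt6*-KO libraries, and *Elane* had at most 1 in any. *Supt6*-KO mouse 3 was the highest of its group for both sums and also for *Tnf*, *Tnfsf10*, *Fas*, *Cd40* and *Tnfrsf1b*. Mouse 4 had the lowest of both sums in its group and the lowest *Tnfsf10*, *Fas* and *Cd40*. Other members did not follow the sums, since mouse 4 had the highest *Tnfsf9*, *Tnfsf14*, *Tnfrsf9* and *Tnfrsf12a* of its group and mouse 3 the lowest *Tnfrsf12a*. The macrophage and monocyte sum of the *Supt6*-KO mice was mostly *Lyz2* (605.5, 640.8, 910.5 and 407.4 CPM). Within that group *Lyz2*, *Ly6c2* and *Adgre1* were lowest in mouse 4. By contrast, *Cd68*, *C1qa*, *C1qc* and *Itgam* were highest in mouse 4, and the remaining markers of that list were neither. The part of these marker shifts in the members' results was not tested.

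Langerhans and dendritic cell markers summed to 616.2 to 764.9 CPM in control and 59.0 to 218.4 CPM in *Supt6*-KO mice (5 of 7 lower, 1 higher, *Cd74* most abundant in control and *H2-Ab1* by mean in *Supt6*-KO mice). T and NK cell markers summed to 110.0 to 125.6 CPM and 41.5 to 77.8 CPM (5 of 10 lower, 2 higher, *Thy1* most abundant). Mast cell markers were mixed (2 of 6 higher, 1 lower, *Mcpt4* most abundant in control and *Cma1* by mean in *Supt6*-KO mice). Endothelial cell markers, from a cell type that carries TNFR2, were lower in 5 of 6 cases (54.2 to 121.3 against 32.8 to 46.2 CPM, *Pecam1* most abundant).

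Basal keratinocyte markers fell in 5 of 6 cases, with *Krt14* not called. They summed to 8384, 5790, 7000 and 14080 CPM in the *Supt6*-KO mice, against 11550 to 13170 CPM in the controls, so mouse 4 lay above every control. *Krt14* had 4730, 3114, 3962 and 9613 CPM in the *Supt6*-KO mice, against 2972 to 3809 CPM in the controls. Suprabasal markers were higher in 3 of 6 cases and lower in 1, and summed to 39120 to 41560 CPM in *Supt6*-KO mice 1 to 3 but to 19880 CPM in mouse 4, against 19920 to 21940 CPM in the controls. Fibroblast markers were lower in 5 of 6 cases, adipocyte in 4 of 4, skeletal muscle in 5 of 5, hair follicle in 6 of 6 and cartilage in 6 of 6, whereas melanocyte markers were higher in 4 of 4. The part of these shifts in the members' values was not tested. Without mouse 4, which stood apart in its keratinocyte markers, the same number of 7 members was higher, with *Tnfsf10* at 0.95, *Fas* at 0.94 and *Cd40* at 1.38. Without mouse 3, 5 members were higher.

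**Figure D4:**
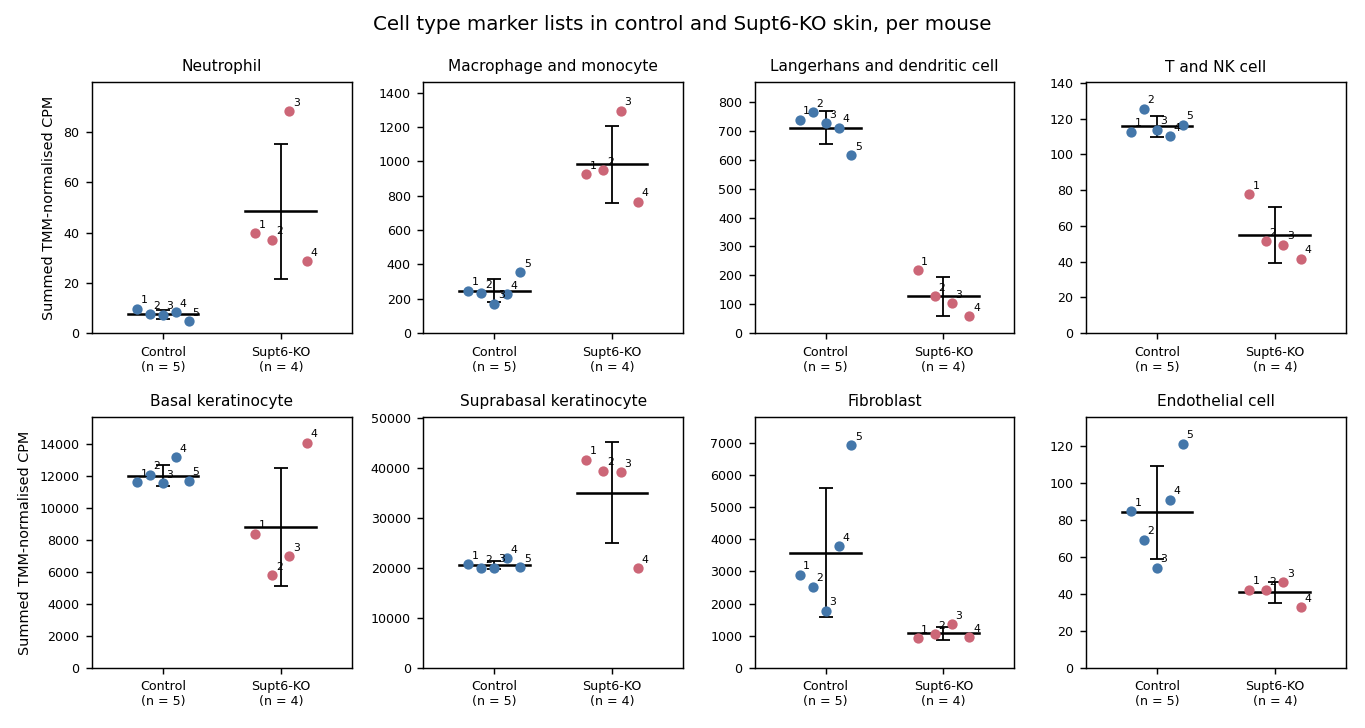
Summed level of 8 cell type marker lists (vertical axis, TMM-normalised CPM, starting at 0) in 5 control (blue) and 4 Supt6-KO mice (red), with mean and SD. Neutrophil and macrophage sums are higher in every Supt6-KO mouse, highest in mouse 3, and Langerhans and dendritic cell, T and NK cell, fibroblast and endothelial sums are lower in every Supt6-KO mouse.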

How the data were processed

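Bulk skin RNA came from 4 *Supt6*-KO and 5 control mice. By the methods of the study, paired reads were aligned to mm10 with Bowtie2 and quantified with RSEM, and the submitters' processing notes name HISAT, Bowtie2 2.3.4.3, RSEM 1.3.1 and DESeq2 1.4.5. The authors deposited RSEM estimated counts per gene, not normalized between samples, of which 9% were not whole numbers (tolerance 1e-06). The authors' deposited TPM columns cover 6 of the 9 samples and served only to check gene lengths. The annotation release is not given in the sources used here. RefSeq genes were matched for 17850 of 17943 rows and transcript lengths for 98.9%.

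The estimated counts were rounded. Genes with a sum of at least 10 counts were tested with edgeR 4.0.16 (R 4.3.3, TMM factors, quasi-likelihood test, no covariates) and Benjamini-Hochberg adjustment across every gene that passed. The SE is the absolute log2 fold change divided by the square root of F. CPM were TMM-normalised. The length correction used a loess trend (span 0.3) of each sample on transcript length as an offset. Depth was 29627341 to 30967107 counts per library, and 3 counts were taken as the floor of detection, which covers counting error only. Nothing in the labels says how the mice relate to each other, so p-values measure the spread between these samples.

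The 10 members and all gene lists were chosen with earlier results of these data known. Named genes were the members, *Supt6*, known partners of the members, and listed genes changed at least 2-fold. Family and pathway genes outside this rule are marked in the text, cell type markers and genes that overlap a member are named where their list or locus is described, and the list of single genes followed through the alternatives was narrowed to the genes named. Fold changes of the genes followed and counts of calls were recomputed with library totals, upper-quartile factors, DESeq2 1.42.0 and 2 other filters. They were also recomputed with the replicate number as a block, with the length correction and without each mouse in turn. The ratios were recomputed only with 1 or 0.1 counts added per gene in place of 0.5, with that block and without each mouse. The length correction was not applied to the ratios. The result of 1 marker list is not reported here.

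On simulated counts for this comparison, edgeR recovered 68% of 100 genes changed by 1 on the log2 scale and 100% of 100 changed by 2, and called 10 unchanged genes among 16440 tested. DESeq2 recovered 73% and 100% and called 25. The changed genes were few, equally up and down, and drawn from genes of higher mean count than *Tnfsf14*. All genes had the same dispersion, and no shift in library composition or length trend was simulated. In the real libraries 34.1% of genes were called higher and 36.8% lower, so these figures do not carry over to them. Tables and exact tests used Python 3.11.15, pandas 2.3.3, numpy 2.4.6 and scipy 1.17.1, and figures matplotlib 3.10.9.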

Additional observations from a re-analysis of the deposited data

Results flagged for a closer look

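In groups of 4 or 5 mice, 60 sets of values were examined for a mouse far from the others, and 3 stood apart, about the 3 that chance gives. *Tnf* was 14.0 CPM in *Supt6*-KO mouse 3, against a group median of 6.21 CPM. *Tnfrsf1b* was 8.05 CPM in the same mouse, against a group median of 6.60 CPM. Suprabasal keratinocyte markers summed to 19880 CPM in *Supt6*-KO mouse 4, against a group median of 39280 CPM. Causes were not tested.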

How the results depend on the processing

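The setting that moved most was library totals in place of TMM. Over all genes it left 2771 higher, 1470 higher at least 2-fold and 6802 lower at least 2-fold. Of the members, 4 were higher, 3 of them at least 2-fold, and 1 was lower. Of the other family genes 4 were higher and 14 lower at least 2-fold, of mediators and targets 12 were higher, 26 lower and 14 lower at least 2-fold, and of cell type markers 20 were higher, 17 at least 2-fold. Signs turned for *Tnfrsf1a* (-0.65), *Tnfrsf1b* (-0.25), *Tnfrsf9* (-0.33), *Ltbr* (-0.22), *Tnfrsf10b* (-0.39), *Tnfrsf23* (-0.27), *Nfkbib* (-0.44), *Nfkbie* (-0.25), *Sele* (-0.62) and *Sod2* (-0.50). The length correction left 3 mediators and targets lower at least 2-fold and turned *Tnfrsf1a* (-0.09), *Tnfrsf17* (-0.14), *Tnfrsf22* (0.15), *Tnfrsf23* (-0.15), *Adam17* (0.40), *Cyld* (0.80) and *Rel* (0.10). Upper-quartile factors turned *Tnfrsf1a* (-0.06). Left-out mice turned *Tnfrsf1a* (-0.02 without control 5 or *Supt6*-KO 4, -0.05 without *Supt6*-KO 1), *Tnfrsf14* (0.04 and 0.06 without *Supt6*-KO 2 and 3) and, without *Supt6*-KO 4, *Tnfrsf10b* (-0.23), *Tnfrsf23* (-0.35) and *Cyld* (0.02). Over all left-out mice these reached -0.36 to 0.06 for *Tnfrsf14*, -0.23 to 0.41 for *Tnfrsf10b*, -0.35 to 0.55 for *Tnfrsf23* and -0.24 to 0.02 for *Cyld*. *Tnfrsf1b* was also called with a minimum of 10 counts in 4 samples (0.46, adjusted p = 0.045). With each mouse left out, the log2 difference in the *Tnfrsf12a* to *Tnfsf12* ratio was 2.26 to 2.55 and the groups never overlapped. Its adjusted p was then 0.0429 to 0.107, past the threshold without control 4 or 5, but each exact permutation p was the smallest that the group sizes allow, so these p-values say nothing about stability. The *Tnfsf14* to *Tnfsf10* ratio was 0.89 to 1.66 (1.6 and past the threshold without control 4) and the *Tnfrsf1b* to *Tnfrsf1a* ratio 0.32 to 0.58 (0.58 and past it without control 5). The causes were not tested.

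Mice of the 2 groups share replicate numbers, but same-numbered mice deviated together only weakly (correlations of -0.009 to 0.159, mean 0.080). Other pairs had a mean of -0.016 and a range of -0.178 to 0.178. Correlations this weak over 4 pairs cannot decide whether the numbers pair the mice. With the replicate number as a block, 7 members were higher, *Tnfrsf1a* was -0.03 and the *Tnfrsf12a* to *Tnfsf12* ratio was 2.26 (exact permutation p = 0.125, the smallest that 4 pairs allow). Depth limits *Tnfsf14* most among the members, at 3 to 36 counts per library, and several other family genes had fewer.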
